A study of Danio rerio with 40 samples.

Results

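The let-7 family of miRNAs was examined in sperm of adult male zebrafish of the AB wild-type strain. Its members were taken by name, as the rows of the deposited miRNA table that start with DRE-LET-7 and are not 3p arms. This rule uses no measured value, though it was chosen with earlier results of these data known. This gave 9 of the 346 miRNAs: dre-let-7a, let-7b, let-7c-5p, let-7d-5p, let-7f, let-7g, let-7h, let-7i and let-7j. Males were kept for 2 weeks either as 2 males with 1 female (High) or as 1 male with 2 females (Low), in 3 L tanks, and sperm was then taken. Each male met both environments. The Low-first line gave the Low1 and then the High2 samples, and the High-first line gave the High1 and then the Low2 samples. All groups were wild type, and period 1 or 2 is part of each group name, so the treatment and the time of sampling cannot be told apart within a line. The table held 10 libraries each for High1, Low1 and High2 and 9 for Low2, and each library came from an individual sperm sample.

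The let-7 miRNAs were first described in Caenorhabditis elegans, where they control the timing of larval development, and the mature sequence is conserved across bilaterian animals. The members share the seed at the 5′ end, the stretch that pairs with target transcripts, and differ by few bases elsewhere. In vertebrates their targets include transcripts of the Ras, Hmga2 and Trim71 genes, their level rises as cells differentiate, and the RNA-binding protein Lin28 blocks their maturation in stem cells and early germ cells. Mature sperm is close to transcriptionally silent, so its small RNAs are those left from spermatogenesis or taken up later. Reads were aligned without mismatch, so a read with an error is counted for another member only where it then matches that member exactly. How reads that matched several members were counted is not stated in the sources used here. Both 3p rows of the family held identical values in every library, so reads matching several rows may have been counted in full for each. Sums, shares and totals of reads may then hold the same read in several rows.

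Total miRNA reads ranged from 79435 to 8447142 per library, and 4 libraries (Low1_1, Low1_3, Low2_2 and Low2_3) had fewer than 500000. Groups followed the prefix of the sample names. That grouping equals the treatment label of the public record in 17 of the 39 libraries and differs in 22. For 9 libraries, name and label fit no common naming. In the other 30, the label takes the first letter of the name as the treatment of that sample. Their second-period labels are therefore the reverse of the groups used here. Names with Hb were labelled High2 and grouped as Low2, and names with Lb the other way. Each comparison's median over the members is also given without the 9 libraries where it turned or moved by over 1.5 times. That setting, called fitting labels below, keeps the grouping by prefix. In it group and label agree for the first-period libraries and do not agree for the second-period libraries. Rows of miRNAs known from other tissues were present at different levels. Those of epithelium (miR-203 and miR-205, 6 rows) were high, with sums of 10650 to 96515 normalised reads. Most of this was miR-203b-3p (9777 to 86257), rank 14 of all miRNAs. In the same list miR-205-5p ran from 10.6 to 3917, and miR-205-3p was at 0 in 29 libraries. Those of neural tissue (miR-9 and miR-124, 8 rows) summed to 7211 to 24158. Most of this was miR-9-5p (6774 to 23464), rank 16, and no miR-124 row was above 43.3 in any library. The sums were lower for muscle (miR-1, miR-133 and miR-206, 6 rows, 204 to 2488) and blood (miR-451 and miR-144, 3 rows, 236 to 2760). The part of other cells in the let-7 levels was not tested. In blood, miR-451, which is abundant in red cells, was at 0 in 3 libraries and reached 2429 normalised reads. Its group medians were 11.6 in High1, 6.23 in Low2, 55.2 in Low1 and 3.78 in High2. None of the 3 blood rows had a limma unadjusted p under 0.05 in any comparison below. The highest blood sum was in Low1_1, which had 79435 reads. The blood row miR-144-5p was present in every library (216 to 719), while its other arm, miR-144-3p, was at 0 in 13 libraries and reached 16.0. The gonadal miR-202 was present in every library (685 to 17745 normalised reads for both arms).

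The let-7 family was among the most abundant miRNAs of these sperm libraries. All 9 members were detected in 39 of 39 libraries, and the fewest reads of any member were 73, for let-7h in Low1_1. Counted reads of the family made up 12.0% of all miRNA reads in Low1_6 (95% Wilson interval 11.9 to 12.0%) and 46.0% in High1_5 (45.9 to 46.1%), with a median of 21.2% over the 39 libraries. These intervals cover counting error only and take each counted read as separate. By group, the median share was 23.8% in High1 (18.2 to 46.0%, n = 10), 18.3% in Low2 (13.0 to 28.1%, n = 9), 20.2% in Low1 (12.0 to 29.0%, n = 10) and 21.3% in High2 (12.5 to 35.8%, n = 10). The ranges of all groups overlapped. Without let-7a the other 8 members together held 3.97 to 12.8% of the reads.

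**Figure D1:**
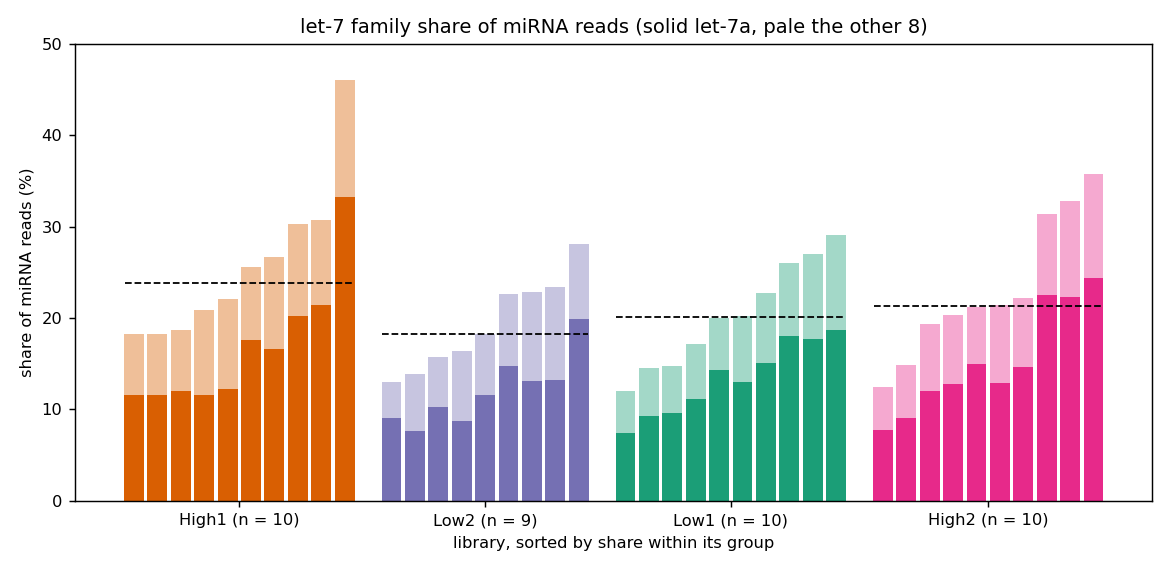
Share of miRNA reads (%, y axis) held by the let-7 family in each of 39 sperm libraries, sorted within its group, with let-7a solid, the other 8 members pale and the group median dashed. The groups overlap, and the highest bar is High1_5 at 46.0%.

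Levels are given as normalised reads, the reads of a miRNA divided by the size factor of its library. One member, let-7a, held most of the family. Its normalised reads were 172206, 308358 and 594955 (lowest, median, highest) in High1, 146534, 265797 and 316327 in Low2, 183491, 255989 and 325695 in Low1 and 174411, 215338 and 344250 in High2. The 4 ranges overlapped, and the highest library was High1_5. Its median over all libraries, 261829, was rank 2 of the 346 miRNAs, below only dre-miR-2189 at 463537. It made up 53.6 to 72.1% of the family's reads in a library.

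The other members followed in steps. The next was let-7g, with a median of 48065 normalised reads and rank 7 of all miRNAs (17676 to 121102). Then came let-7f with 26824 and rank 10. Its range was the widest of the members by fold, from 8700 in High2_4 to 83743 in High1_7, a ratio of 9.63. Below them were let-7c-5p with 19688 (rank 13, 10969 to 38137), let-7b with 12728 (rank 17, 5779 to 42048), let-7j with 12606 (rank 18, 5609 to 26002) and let-7i with 8102 (rank 24, 4224 to 18428). The lowest members were let-7h with 2465 (rank 49, 1428 to 4801) and let-7d-5p with 1833 (rank 53, 753 to 5529). A further family gene, let-7e, is not analysed here.

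Some neighbours in this order were separate in every library and others were not. The ranges of let-7a and let-7g did not overlap, and let-7a was 2.80 to 9.08 times let-7g. In 39 of 39 libraries let-7g was above let-7f, by a ratio of 1.03 in High1_2 to 3.51 in High2_3, and in 39 of 39 let-7i was above let-7h. By contrast, let-7b was above let-7j in only 22 of 39 libraries, and the ratio of these 2 ran from 0.23 in High1_3 to 5.46 in High1_2. The order also crossed between let-7f and let-7c-5p (29 of 39), let-7c-5p and let-7b (32 of 39), let-7j and let-7i (32 of 39) and let-7h and let-7d-5p (27 of 39). All members are mature miRNAs of similar length, so levels of different members are compared here without a length correction. The order is one of reads, and whether the library preparation captured all members equally was not tested.

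**Figure D2:**
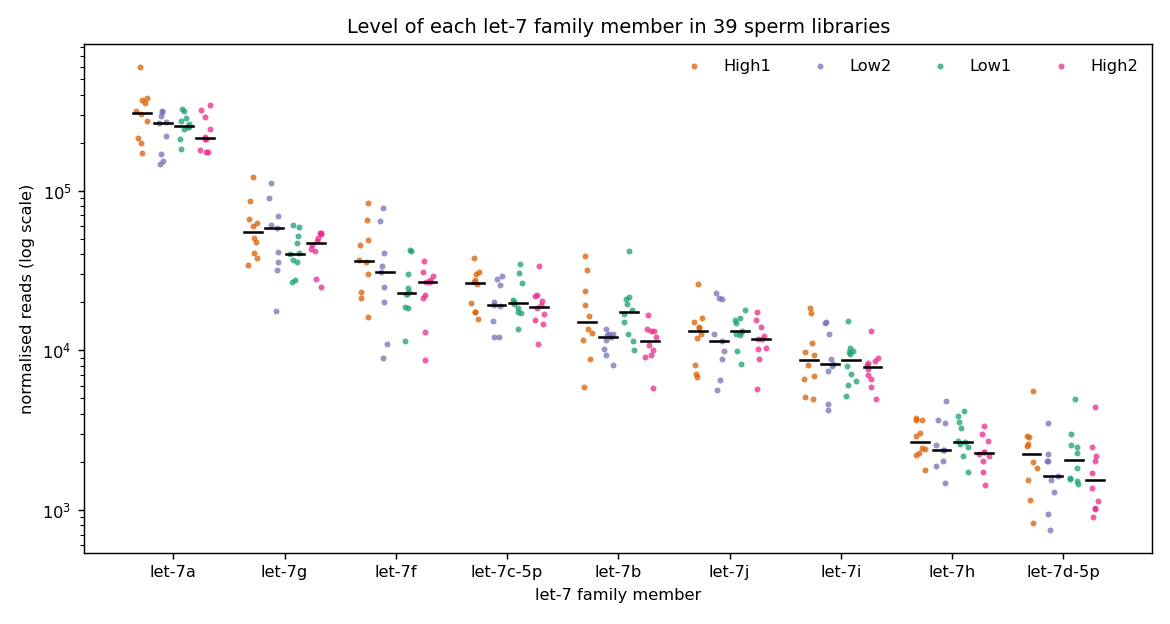
Normalised reads (log scale, y axis) of the 9 let-7 members in 39 sperm libraries, with each point a library, colours for the groups and bars for group medians. The levels fall from let-7a, median 261829, to let-7d-5p, median 1833, and the groups overlap for every member.

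The spread of the members between libraries was close to that of other abundant miRNAs. Over all libraries the SD of the log2 level was 0.42 for let-7h and let-7a, 0.44 for let-7c-5p, 0.53 for let-7i and let-7j, 0.57 for let-7g, 0.62 for let-7b, 0.69 for let-7d-5p and 0.78 for let-7f. The median of the members was 0.53, and that of the 57 miRNAs with a mean level at or above the lowest member's, the members included, was 0.62. Within groups the lowest SD of a member was that of let-7b in Low2 and of let-7a in Low1, both 0.25, and the highest was that of let-7f in Low2, 1.05.

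The 5p arms stood far above the 3p arms. Both 3p rows of the family, let-7c-3p and let-7d-3p, held identical values in every library, so their reads cannot be told apart. Each was between 0 and 140.2 normalised reads. The value of 0 was in Low1_3, where a count of 0 allows up to 3 reads. For comparison, let-7c-5p was never below 10969 and let-7d-5p never below 753 normalised reads. The 3p rows had 0 calls in each of the 6 comparisons below, and 0 at an unadjusted p under 0.05.

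No let-7 member differed between treatments at an adjusted p under 0.05, in any of the 6 comparisons, and neither did any other miRNA in the limma fit. A related test on the recovered reads, limma-voom, which weights each value and was fitted without the trend, also called 0 of 346 miRNAs in each. The paper, with DESeq2, reports differentially expressed miRNAs between High2 and Low2, and miR-10b-5p also between High2 and Low1. No let-7 member is among them. Its model differs from the one used here, so the absence of calls is that of the limma fit and its grouping. The test was limma with a trend over all 346 miRNAs and all groups, and a log2 fold change is the difference of mean log2 values, so that -1 is a level of 50%. The comparisons share samples, so they are not independent of each other. The labels and the study's list of small RNA samples give no male for a sample, so whether same-numbered samples came from 1 male is not known here, and p-values measure the spread between these samples. By design each male was sampled in both periods, so the samples of a line are not independent. The fit had group as its only factor and left this out. The SEs and p-values of comparisons within a line and across periods are therefore approximate.

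Within the Low-first line, High2 against Low1 compares sperm taken after the second treatment with sperm taken after the first. Of the 9 members, 8 were lower in High2, with log2 fold changes from -0.66 to 0.07 and a median of -0.18, beside a median of 0.04 over all miRNAs. The member with the smallest p was let-7b. Its normalised reads were 5779, 11477 and 16665 (lowest, median, highest) in High2 and 10106, 17336 and 42048 in Low1. The ranges overlapped, and Low1_3 was the highest. The log2 fold change was -0.66 (SE 0.25, limma adjusted p = 0.817), and High2 was lower in each of the 5 sequencing pools, by differences of -0.43 to -1.40 that rest on 1 to 3 libraries a group. For let-7a it was -0.16 (SE 0.19, adjusted p = 0.979). The call rate was 0 of 346 miRNAs (0%), and 1 member and 20 miRNAs (5.78%) had an unadjusted p under 0.05. On log2 CPM, which scales each library by its total miRNA reads, and where the median of all miRNAs was itself 0.24, let-7a was 0.16 and the members had a median of 0.14 with 3 lower. Grouping libraries by their public-record labels gave a median of 0.15 with 4 lower and let-7b at -0.21. High2 by those labels is mostly libraries grouped here as Low2. Fitting labels alone gave -0.29 with 6 lower. Pool as a covariate gave -0.35 with 9 lower and 2 members at an unadjusted p under 0.05. Libraries of at least 500000 reads gave -0.10, and leaving out Low1_3 gave -0.12.

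Within the High-first line, Low2 against High1 makes the same comparison with the treatments in the other order. All 9 members were lower in Low2, with log2 fold changes from -0.48 to -0.03 and a median of -0.33, beside 0.03 over all miRNAs. The smallest p was that of let-7a, with -0.38 (SE 0.20, limma adjusted p = 0.993). The levels of let-7a are given above, and both groups overlapped. Of all miRNAs 0 were called (0%), and 0 members and 3 miRNAs (0.867%) had an unadjusted p under 0.05. The median of the members was 0.03, with 4 of 9 lower, when libraries under 500000 reads were left out, and it was -0.17 without Low2_2 alone.

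**Figure D3:**
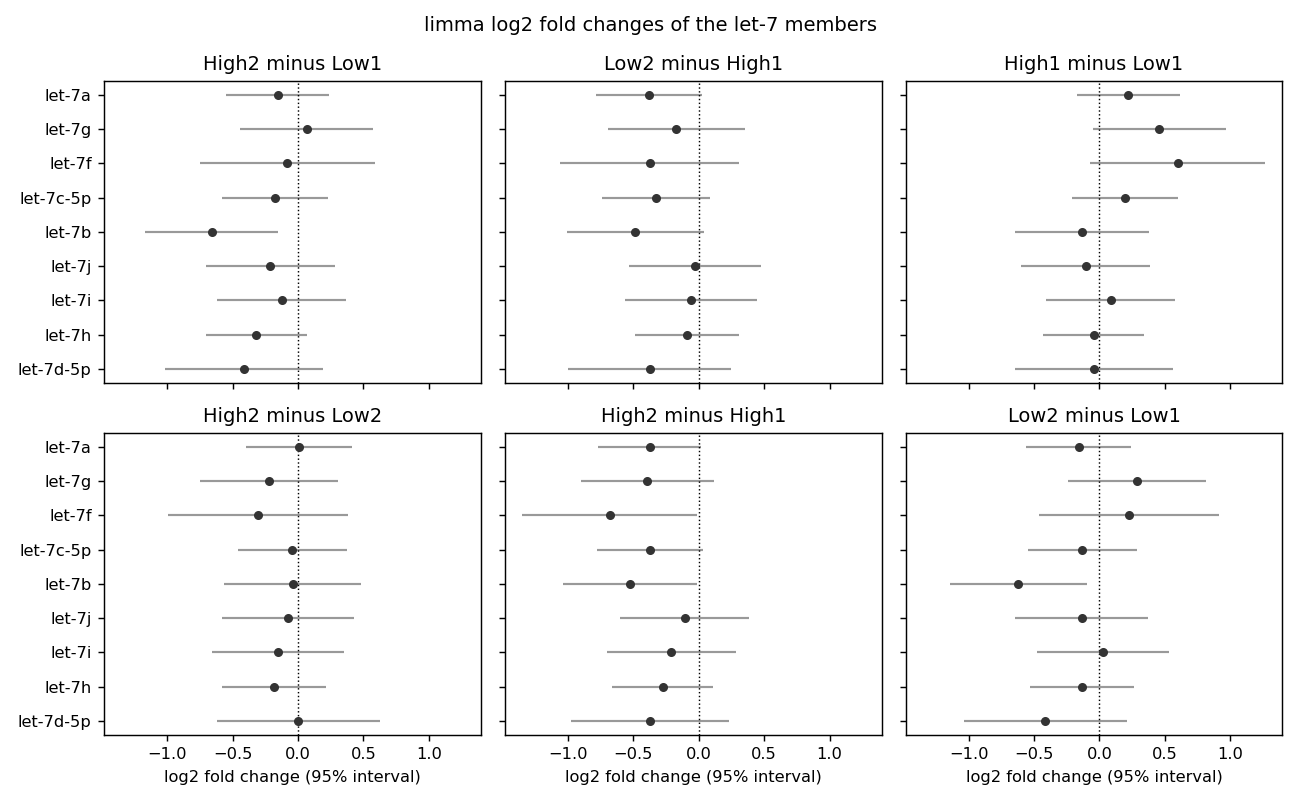
Log2 fold change (x axis) of each let-7 member in the 6 comparisons, with points for the limma estimate and bars for its 95% interval. No member passed the threshold after adjustment, and 4 of the 54 intervals leave out 0, of which 3 are those of let-7b.

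After the first treatment, High1 against Low1 compares the environments in males not yet moved. Of the 9 members 5 were higher and 4 lower in High1, and the median was 0.09 beside 0.02 over all miRNAs. The highest value was that of let-7f and the smallest p that of let-7g. The normalised reads of let-7g were 34221, 55513 and 121102 (lowest, median, highest) in High1 and 26930, 40233 and 61375 in Low1. The highest library of High1 was High1_7, and the groups overlapped. The log2 fold change of let-7g was 0.46 (SE 0.25, limma adjusted p = 0.774), and that of let-7a was 0.22 (SE 0.19, adjusted p = 0.832). Of all miRNAs 0 were called (0%), and 0 members and 11 miRNAs (3.18%) had an unadjusted p under 0.05. The median of the members was -0.03, with 5 lower, when pool was a covariate, and it was between 0.01 (without Low1_4) and 0.17 (without High1_9) when 1 library was left out. It was 0.16 on log2 CPM, 0.17 with libraries of at least 500000 reads, 0.14 with fitting labels and 0.02 by the public-record labels.

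After the second treatment, High2 against Low2 compares the environments in males that had met the other before. Of the members 7 were lower and 2 higher in High2, with a range of -0.31 to 0.00 and a median of -0.08, beside 0.01 over all miRNAs. The smallest p was that of let-7h, whose normalised reads were 1428, 2267 and 3374 (lowest, median, highest) in High2 and 1477, 2383 and 4801 in Low2. These ranges overlapped. The log2 fold change of let-7h was -0.19 (SE 0.20, limma adjusted p = 0.986) and its 95% interval ran from -0.58 to 0.21. For let-7a the value was 0.00 (SE 0.20, adjusted p = 0.996, 95% interval -0.40 to 0.41). Of all miRNAs 0 were called (0%), and 0 members and 14 miRNAs (4.05%) had an unadjusted p under 0.05. On log2 CPM, where the median of all miRNAs was 0.22, 0 members were lower, their median was 0.23 and let-7h was 0.12. By the public-record labels these were 0, 0.24 and 0.42. Those labels swap High2 and Low2 in most second-period libraries, so by them this is largely the same comparison turned round. The median was -0.30 (8 lower) with libraries of at least 500000 reads, -0.21 (9 lower) with fitting labels, -0.15 (8 lower) with pool as a covariate, and between -0.19 (without Low2_2) and -0.04 (without Low2_5) when 1 library was left out.

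The 2 High groups and the 2 Low groups come from different lines and periods. In High2 against High1 all 9 members were lower in High2, with a range of -0.68 to -0.11 and a median of -0.37, beside 0.04 over all miRNAs. The smallest p was that of let-7b, with normalised reads of 5928, 15007 and 38823 (lowest, median, highest) in High1 against the High2 values given above. The log2 fold change was -0.53 (SE 0.25, limma adjusted p = 0.714), and within the pools it ran from -1.59 to 0.88. For let-7a it was -0.37 (SE 0.19, adjusted p = 0.714). Of all miRNAs 0 were called (0%), and 2 members (let-7b and let-7f) and 22 miRNAs (6.36%) had an unadjusted p under 0.05. On log2 CPM, where the median of all miRNAs was 0.22, 7 of the 9 were lower, their median was -0.14 and let-7b was -0.29. With grouping by the public-record labels 7 were lower, and the median and let-7b were both -0.08.

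In Low2 against Low1, 6 members were lower and 3 higher in Low2, with a range of -0.62 to 0.29 and a median of -0.13, beside 0.05 over all miRNAs. The smallest p was again that of let-7b, with normalised reads of 8109, 12173 and 13685 (lowest, median, highest) in Low2. The highest Low2 library lay below the median of Low1, though the ranges overlapped, with the lowest Low1 library at 10106. The log2 fold change of let-7b was -0.62 (SE 0.26, limma adjusted p = 0.577), and Low2 was lower in each of the 5 pools, by -0.23 to -1.12. These differences rest on 1 to 3 libraries a group. The largest, in pool 3, had Low1_1 with 79435 reads as its only Low1 library. For let-7a it was -0.16 (SE 0.20, adjusted p = 0.791). Of all miRNAs 0 were called (0%), and 1 member and 22 miRNAs (6.36%) had an unadjusted p under 0.05. Without libraries under 500000 reads the median of the members was 0.11, with 2 of 9 lower, and let-7b was -0.42. With fitting labels the median was 0.08 (4 lower), by the public-record labels -0.26 (7 lower), with pool as a covariate -0.20 (7 lower), and with 1 library left out between -0.21 (without Low2_5) and -0.03 (without Low2_3).

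A contrast of both second-period groups against both first-period groups was added after these values had been seen, since let-7b was lower in the later group of each comparison across periods. It pools the samples above and is no separate evidence. Of the 9 members, 9 were lower in the second period, with a range of -0.57 to -0.05 and a median of -0.23, beside 0.04 over all miRNAs. The value of let-7b was -0.57 (SE 0.18, limma adjusted p = 0.822). Of all miRNAs 0 were called (0%), and 1 member, let-7b, and 11 miRNAs (3.18%) had an unadjusted p under 0.05. Between same-numbered samples, let-7b was lower in the second sample in 9 of 10 of the Low-first line and in 7 of 9 of the High-first line. For let-7d-5p these were 9 of 10 and 6 of 9. For the remaining members they ran from 5 to 7 of 10 and from 3 to 7 of 9. The numbers are not shown to pair samples of the same male, so these counts are descriptions. Within the pools the difference of let-7b was -1.02, -0.42, 0.19, -0.72 and -0.50. On log2 CPM, and without libraries under 500000 reads, 6 of the 9 members were lower, and let-7b was -0.45 and -0.48. The median of the members was then -0.11 and -0.12, and with fitting labels it was -0.12 with 9 lower. Grouping by the public-record labels was not run for this contrast. By those labels let-7b was -0.21 in High2 against Low1, -0.08 in High2 against High1 and -0.42 in Low2 against Low1. Averaged over periods, High against Low gave members between -0.12 and 0.15, and Low-first against High-first between -0.45 and 0.05, with 0 calls among members and 0 among all miRNAs (0%) in each.

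Members did not vary as a unit across libraries. Over the 39 libraries, which share their size factor and depth across members, the Pearson correlation of log2 levels had a median of 0.36 over the 36 pairs of members. It was over 0.5 in 9 pairs and below 0 in 6. The closest pair was let-7g and let-7f, with r = 0.87, followed by let-7j and let-7h with r = 0.79 and let-7a and let-7c-5p with r = 0.75. Of the other pairs, let-7a with let-7g was 0.65 and let-7c-5p with let-7d-5p was 0.61. At the other end, let-7j and let-7d-5p had r = -0.18 and let-7i and let-7d-5p r = -0.11. For the 3 closest pairs the value was 0.86, 0.80 and 0.72 within groups, 0.81, 0.82 and 0.81 on log2 CPM, and 0.85, 0.81 and 0.75 in the 35 libraries of at least 500000 reads. All pairs share reads of one library, so these are descriptions, and the part of reads that match more than 1 member was not tested.

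**Figure D4:**
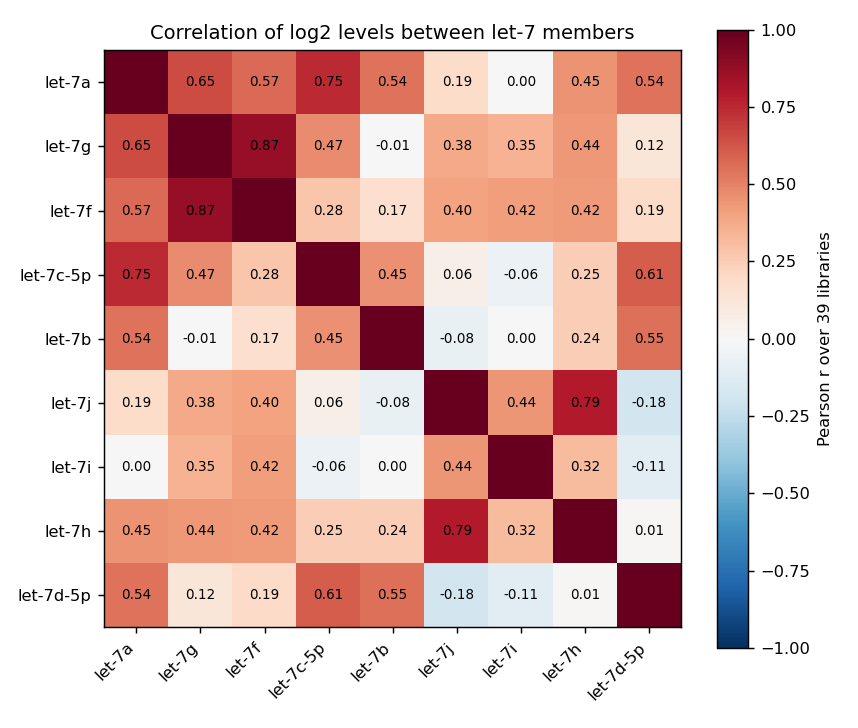
Pearson correlation of log2 levels over 39 libraries for each pair of let-7 members, from blue (-1) to red (1). The closest pairs are let-7g with let-7f (0.87), let-7j with let-7h (0.79) and let-7a with let-7c-5p (0.75), and let-7j with let-7d-5p is lowest (-0.18).

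The closest pairs were not those whose genes lie next to each other. In the RefSeq annotation of the zebrafish assembly GRCz12tu, 9 of 9 members were matched to 17 loci, with 6 for let-7a, 2 each for let-7g, let-7c and let-7d and 1 for each of the others. Within 10 kb, a locus of let-7a lies beside let-7f, another beside let-7b, and a locus of let-7g beside let-7h. The correlations of these pairs were 0.57, 0.54 and 0.44. The genes of let-7i, let-7j and both let-7d loci had no miRNA neighbour within 10 kb. Which locus a mature read came from cannot be read from these data.

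**Figure D5:**
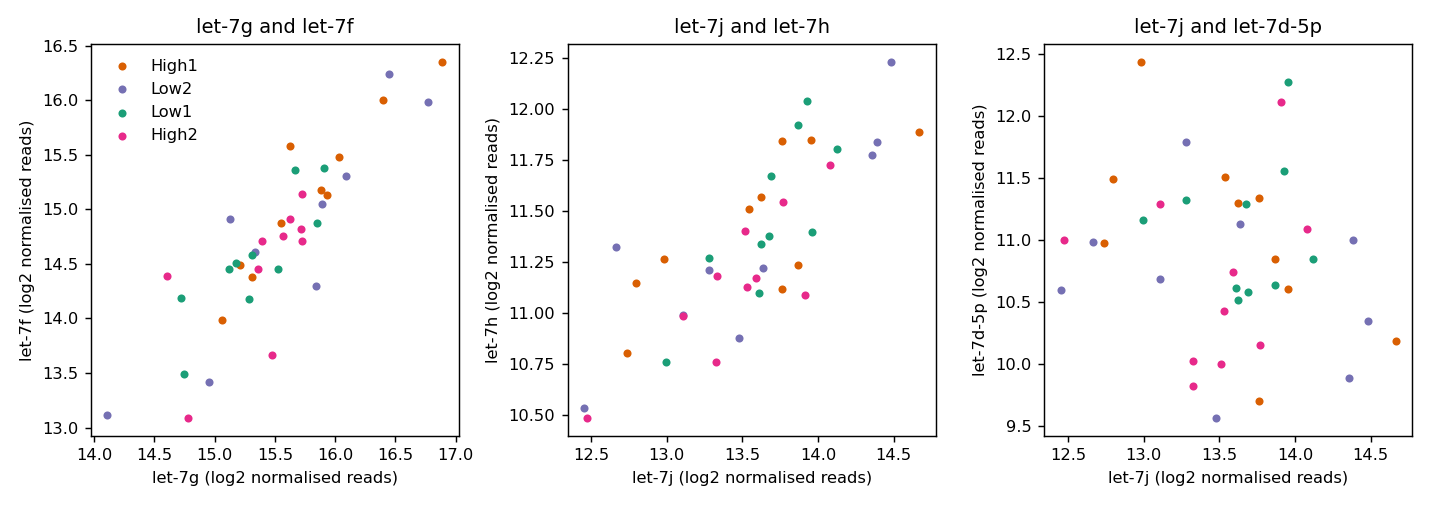
Log2 normalised reads of 3 pairs of let-7 members, each point 1 of 39 libraries, coloured by group. let-7f follows let-7g (r = 0.87) and let-7h follows let-7j (r = 0.79) in all groups, while let-7d-5p does not follow let-7j (r = -0.18).

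Other loci of let-7a, and those of let-7c, lie within 10 kb of miR-100, miR-99 or miR-125 genes, an arrangement known from many animals. The mature miRNAs of these 3 families filled 11 rows, with a sum of 98032 to 198647 normalised reads (median 140980), most of it miR-100-5p. That sum had a correlation of -0.23 with the mean log2 level of the let-7 members over the 39 libraries. For miR-100-5p the value was -0.05, for miR-99 -0.28 and for miR-125b-5p -0.45. With let-7a alone in place of the mean, these were -0.12, -0.29 and -0.28. None of the 11 rows was called in any of the 6 comparisons by limma, and 0 had an unadjusted p under 0.05.

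Among 209 miRNAs outside the family with a mean of at least 10 normalised reads, those most like the mean of the members were miR-1 (r = 0.47), miR-183-5p (0.46), miR-181a-5-3p (0.45), miR-25-5p (0.43) and miR-10d-5p (0.43). In vertebrates miR-1 is a miRNA of striated muscle, miR-183 belongs to a cluster active in sensory cells, and miR-10 genes lie in the Hox clusters. The other muscle rows were not like the mean of the members. For miR-206-3p r was 0.06, and the miR-133 rows ran from -0.33 (miR-133b-3p) to 0.12 (miR-133a-5p). The group medians of those miR-133 rows were between 0 and 1.72 normalised reads. By single member, the most like miRNA was another member for 8 of the 9. The exception was let-7i, which was closest to miR-2189 (r = 0.53). The most like miRNA outside the family was miR-456 for let-7g (r = 0.71), miR-737-5p for let-7j (r = 0.74) and miR-122, the liver miRNA, for let-7b (r = 0.54).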

How the data were processed

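Sperm small RNA of the High1, Low2, Low1 and High2 males was sequenced by the authors in 5 pools. They trimmed adaptors, aligned reads to mature zebrafish miRNAs of miRBase with PatMaN without mismatch or gap, counted them with a Perl script and normalised with DESeq2. The submitters' processing notes name the build GRCz10. The deposited table holds log2 values per miRNA and library. Its lowest value and its steps show what was logged: reads over a size factor of the library, with 4 added. Whole reads were recovered for 13494 of 13494 values (100%, within 0.1 of a whole read). One Low2 sample is not analysed here, nor is the piRNA table. The source of library Ha_10 (High1_10) is uncertain, since a supplement has 2 columns of that name, and an alternative left it out.

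Tests used lmFit and eBayes with trend of limma 3.58.1 (R 4.3.3) on the deposited log2 values, all groups in one fit with group as the only factor, two-sided, Benjamini-Hochberg over 346 miRNAs and threshold 0.05. The deposited values are logged, and a count model such as DESeq2 was not run, though the recovered reads would have allowed one. An alternative was limma-voom on the recovered reads. The fit was tested on simulated data. Other work used Python 3.11.15, numpy 2.4.6, pandas 2.3.3, scipy 1.17.1 and matplotlib 3.10.9. All members are named with their levels, and log2 fold changes by name are given for let-7a and the member with the smallest p in each comparison. let-7f in one count, let-7b in the period contrast and let-7d-5p in the counts of same-numbered samples were named after their values were seen. Members, lists and tests were chosen with earlier results of these data known. Mature sequences were not used here, so no comparison by seed was made. Depth per library was 79435 to 8447142 miRNA reads, and intervals cover counting error only, since PCR copies cannot be told from molecules. Marker lists also covered epithelium (miR-203 and miR-205, 10650 to 96515 normalised reads), neural tissue (miR-9 and miR-124, 7211 to 24158), liver (miR-122, 1406 to 7136), gut (miR-192 and miR-194, 438 to 2750) and endothelium (miR-126, 0 to 301).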

Additional observations from a re-analysis of the deposited data

Results flagged for a closer look

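In Low1 the log2 level of let-7b was 15.36 in Low1_3, and the next library was at 14.40. This gap was 0.466 of the group's range, just above the critical value for 10 libraries. Low1_3 had 166612 reads, its name and label fit no common naming, and of the marker sums it was rank 1 of 39 for the neural list (24158 normalised reads), rank 2 for liver (6092) and rank 4 for muscle (1091), with rank 4 for the cluster partners (187292). Its blood, epithelium and gut sums were at ranks 33, 36 and 34. The part of these in the value was not tested. Without Low1_3 the log2 fold change of let-7b in High2 against Low1 was -0.52 in place of -0.66.

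In High1 the family share was 46.0% in High1_5, and the next library was at 30.7%, a gap of 0.55 of the range. High1_5 had 1092140 reads. Its summed gut markers were rank 1, its blood markers rank 2 and its muscle markers rank 3 of 39 libraries, at 2750, 1605 and 1165 normalised reads beside 824695 for the family. Its endothelium and liver sums were at ranks 2 and 4. Those of epithelium, the cluster partners, neural tissue and gonad were at ranks 15, 21, 23 and 27. The part of these in the value was not tested. A total of 40 groups of values were looked at in this way, and chance marks about 5% of groups.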

How the results depend on the processing

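The count of let-7 members called was 0 in the 6 comparisons under all 191 combinations of comparison and alternative, with a lowest adjusted p of 0.298. In High2 against High1, 10 other miRNAs were called with libraries of at least 500000 reads, 9 with fitting labels only and 9 in a fit of the 2 groups alone, and 0 of these were members. Same-numbered samples deviated together in 6 of 19 pairs (r over 0.1, mean -0.0073), so the numbers are not shown to pair samples. With the replicate block 0 members were called in High2 against Low1 (lowest adjusted p 0.442) and 0 in Low2 against High1 (0.895). Directions of let-7a and let-7h changed as follows. Apart from the naming of groups by the public-record labels, the cause was not tested. For let-7a, log2 CPM gave 0.16 in High2 against Low1. In High2 against Low2, where it was 0.00, let-7a was -0.013 by limma-voom, -0.00017 with pool as a covariate, -0.14 with libraries of at least 500000 reads, -0.21 with fitting labels only, and -0.076 to 0.063 without 1 library. In Low2 against Low1, let-7a was 0.040 with libraries of at least 500000 reads. For let-7h in High2 against Low2, log2 CPM gave 0.12 and the labels of the public record 0.42. Those labels swap High2 and Low2 in most second-period libraries. By them, High2 against Low2 is largely the same comparison turned round, and High2 is mostly libraries grouped here as Low2. The median of the members in Low2 against High1 moved from -0.33 to 0.03 with libraries of at least 500000 reads. The median over the members also turned in High2 against Low1 (0.14 on log2 CPM, 0.15 by the public-record labels), High2 against Low2 (0.23 and 0.24), High1 against Low1 (-0.03 with pool) and Low2 against Low1 (0.11 with libraries of at least 500000 reads, 0.08 with fitting labels). In the period contrast let-7b was -0.45 to -0.62 under the 6 other settings, chosen after the data were seen, and -0.50 to -0.65 without 1 library, with adjusted p of 0.140 to 0.939. Those settings do not include the public-record labels, which gave smaller falls of let-7b in single comparisons. With 73 reads as the fewest of a member, depth limited no detection.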
